A study of Homo sapiens with 6 samples.

Results

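The effect of estradiol (E2) on Y537S ERα binding was read from 2 lists of ChIP-seq peaks, one from MDA-MB-453 cells that expressed Y537S ERα under doxycycline and received 1 nM E2, and one from the same line given doxycycline alone. The members are the peaks of these 2 lists on chromosomes 1 to 22, merged where they overlapped by at least 1 bp. The merged set holds 127266 regions, of 169433 regions when all 6 lists of the series are merged the same way. The series sets Y537S beside wild-type ERα and K303R, each with 1 nM E2 and without it. All cells were grown for 2 days in medium with 10% fetal bovine serum, then for 2 days with 2 µg/mL doxycycline. Each group has 1 library, so replicates do not back any difference given here, and each comparison is between 2 libraries and not between 2 conditions. The 95% intervals in the text take in counting error alone.

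MDA-MB-453 is an established human breast cancer line of the luminal androgen receptor type that lacks endogenous ERα, so the receptor that was precipitated came from the introduced, doxycycline-inducible gene. The labels do not give the level of induced receptor, how many clones stand behind the line, or whether steroids were removed from the serum. Cells without doxycycline were not analysed here. ERα is a hormone-activated transcription factor. E2 binds the ligand-binding domain and folds its last helix over the pocket, which opens the surface that coactivators dock on, while the DNA-binding domain contacts estrogen response elements, inverted copies of one short motif. Y537S, a substitution of a tyrosine just before that helix, holds the active fold without hormone and is a recurrent change in endocrine-resistant metastatic breast cancer. The comparison asks what E2 adds to a receptor of this kind.

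Promoters show the sequences that lie under such regions. RefSeq promoter windows on GRCh38.p14, from 250 bases before to 50 bases after a gene's start, were matched to the summits of the 2 Y537S lists. Of 33558 windows, 4093 held a summit, and 668 held the summit of a region with a mean of at least 50 fragments at its summit over the 2 Y537S libraries and a peak in both lists. Such regions are called well covered below. The full palindromic element, written GGTCANNNTGACC and identical on both strands, was in 6 of these 668 windows (0.898%, exact binomial interval 0.33% to 1.94%) and in 20 of all 33558 windows (0.0596%). The 6 windows hold 4 different elements, since ZNF669 with FLJ39095 and LINC02466 with LINC02465 are pairs of opposite genes that share one. The percentage counts such windows separately, and the interval takes them as independent, which they are not. The 4 stretches of 120 bases are shown because each pairs a full element with a Y537S summit. They are printed 5′ to 3′ on the gene's strand, with the element in capitals.
ZNF669 (chr1:247104471-247104590, minus strand): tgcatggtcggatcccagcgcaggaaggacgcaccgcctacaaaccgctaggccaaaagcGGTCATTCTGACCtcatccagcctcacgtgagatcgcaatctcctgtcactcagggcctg
LINC02466 (chr4:129771481-129771600, minus strand): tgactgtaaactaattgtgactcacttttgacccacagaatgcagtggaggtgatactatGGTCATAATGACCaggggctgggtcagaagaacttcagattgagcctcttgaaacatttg
LINC02350 (chr12:126425896-126426015, plus strand): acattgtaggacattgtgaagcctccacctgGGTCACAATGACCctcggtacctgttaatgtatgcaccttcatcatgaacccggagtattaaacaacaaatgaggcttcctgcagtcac
SLC35B2 (chr6:44257659-44257778, minus strand): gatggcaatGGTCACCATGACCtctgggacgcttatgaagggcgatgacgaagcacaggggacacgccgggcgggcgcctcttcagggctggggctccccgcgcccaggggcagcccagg

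The element at ZNF669, which encodes a zinc finger protein, began 174 bases before the gene's start, and the Y537S summit lay 9 bp from its centre. That region had 205 summit fragments with E2, against 193 without E2. At the noncoding gene LINC02466 the summit was 2 bp from the element's centre, with 203 fragments with E2 and 189 without E2. At LINC02350, another noncoding gene, the distance was 27 bp and the fragments were 81 with E2 and 87 without E2. At SLC35B2, a transporter of the sulfate donor PAPS into the Golgi, it was 71 bp, with 71 fragments with E2 and 54 without E2. All 4 had a peak in both lists. The highest summit of each region thus lay within 71 bp of the centre of its element. Each window of 300 bases was chosen because it holds both, which in part sets a short distance, and no comparison distance was measured.

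Fragment numbers are compared here as the ratio of E2 over no E2 divided by the median ratio over all well-covered regions. The undivided median was 1.13, because the E2 library had more fragments at most summits. The lowest local background, which follows sequencing depth, was 1.12 fragments in the E2 library and 0.987 in the library without E2, also a ratio of 1.13. After this division ZNF669 had a ratio of 0.942 (0.77 to 1.15), LINC02466 0.953 (0.778 to 1.17), LINC02350 0.826 (0.603 to 1.13) and SLC35B2 1.17 (0.807 to 1.69). All 4 intervals include 1.

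Other motifs were searched as letters on both strands in the same windows. The motif GGTCA, of which the full element holds an inverted pair, was in 72.6% of windows with a well-covered summit and in 37.4% of all windows. The GC box GGGCGG of SP factors was in 55.8% and 45.0%, and the AP-1 site TGANTCA of FOS and JUN proteins in 10.8% and 7.68%. The forkhead letters TGTTTAC were in 3.89% and 3.44%. The GATA letters AGATAA were in 5.84% and 10.4%. A match in these windows is a description and not a shown binding site. The 668 windows belong to 596 regions, whose median E2 ratio was 0.988 (quartiles 0.895 and 1.11, range 0.571 to 1.86). None of the 596 passed the rule for a call that is given below, by which 0.119% of all well-covered regions were higher and 0.0801% lower, shares too small to tell 596 regions from the rest.

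Y537S bound nearly the same strong regions with and without E2. The list with E2 held 109230 regions over 48.7 Mb, against 113714 regions over 49.9 Mb without E2. Median width was 412 bp with E2 and 405 bp without E2. The number of regions with E2 thus fell by 4484. In wild type there were 117710 regions with E2 and 121641 without E2, and in K303R 103833 with E2 and 102848 without E2. The median summit had 30 fragments with E2, against 25 without E2.

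Of the merged Y537S regions, 94185 (74.0%) were in both lists, 14384 (11.3%) in the E2 list alone and 18697 (14.7%) in the list without E2 alone. As shares of each list, 86.8% of E2 regions (86.6% to 87.0%) overlapped a region without E2, and 83.6% of regions without E2 (83.3% to 83.8%) overlapped an E2 region. The same 2 shares were 85.4% and 82.2% in wild type and 81.3% and 82.0% in K303R. Regions in both lists had a median of 39 fragments at their highest summit. Those in the E2 list alone had a median of 12, and those in the list without E2 alone a median of 10. Regions found in 1 list therefore lay mostly near the lower limit of peak calling.

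Strong regions were in both lists. None of the 10000 E2 regions with the highest −log10 p was absent from the list without E2, and none of the 10000 strongest without E2 was absent from the E2 list. Among the 50000 strongest, 30 with E2 and 28 without E2 had no partner. The strongest 100 regions of each list shared 78, the strongest 1000 shared 764 and the strongest 10000 shared 8828. Summits in regions of both lists were a median of 27 bp apart, and 73.3% were within 50 bp.

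Regions of 1 list with at least 50 fragments numbered 190 in the E2 list and 54 in the list without E2. Their local background was high, with a median of 18.0 fragments for the E2 list and 17.0 for the list without E2, against 6.3 at regions of both lists with as many fragments. Their median fold over background was 3.07 and 3.14, against 15.5. In the E2 list the 5 with most fragments lay in TTLL6 (108 fragments over a background of 33.2), ETNK2 (107 over 44.8), MAPKAPK2 (100 over 51.0), SHANK2 (98 over 35.5) and LGR6 (95 over 27.1). In the list without E2 they lay in ITPK1 (92 over 32.8), STARD10 (85 over 23.0), 71372 bp from ANO1 (82 over 32.8), 46301 bp from KATNAL1 (76 over 20.1) and in MIDEAS (74 over 18.5). The part of the local background in their absence from the other list was not tested.

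Regions were also looked up in the other receptors' lists. Of the regions in both Y537S lists, 89.6% (89.4% to 89.8%) were also in the wild-type list with E2 and 89.0% in the one without E2, while 81.7% were in the K303R list with E2 and 77.7% in the one without E2. Of the regions in the Y537S E2 list alone, 44.3% (43.4% to 45.1%) were in the wild-type list with E2 and 47.1% in the one without E2, while 32.3% were in the K303R list with E2 and 30.9% in the one without E2. Of the regions in the Y537S list without E2 alone, 40.9% (40.2% to 41.6%) were in the wild-type list with E2 and 45.1% in the one without E2, while 29.4% were in the K303R list with E2 and 30.6% in the one without E2. No other receptor's list held 4.21% of the regions in both Y537S lists, 32.7% of those in the E2 list alone and 36.0% of those in the list without E2 alone. Location hardly varied. Summits within 1 kb of a gene end made up 13.3% of E2-only regions, 13.2% of regions found without E2 alone and 12.2% of those in both lists.

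The change in strength was measured at 36227 well-covered regions. A region counted as called, higher or lower, if it was more than 1.5-fold from the median and if 1 also lay outside its exact counting interval, set at a confidence error of 1 in 1000. With E2, 43 regions were called higher (0.119%) and 29 lower (0.0801%). Binomial counting error alone would put 11.1 regions past the higher limit and 10.9 past the lower one. Of all well-covered regions, 97.9% had a ratio within 1.5-fold of the median. Ratios beyond 2-fold were seen at 25 regions. The called ratios reached 2.69 at the top and 0.424 at the bottom. Depth sets what could be called. At a mean of 50 fragments the ratio had to reach 2.07 or fall to 0.499, at 100 fragments 1.65 or 0.617, and at 200 fragments 1.51 or 0.663.

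**Figure D1:**
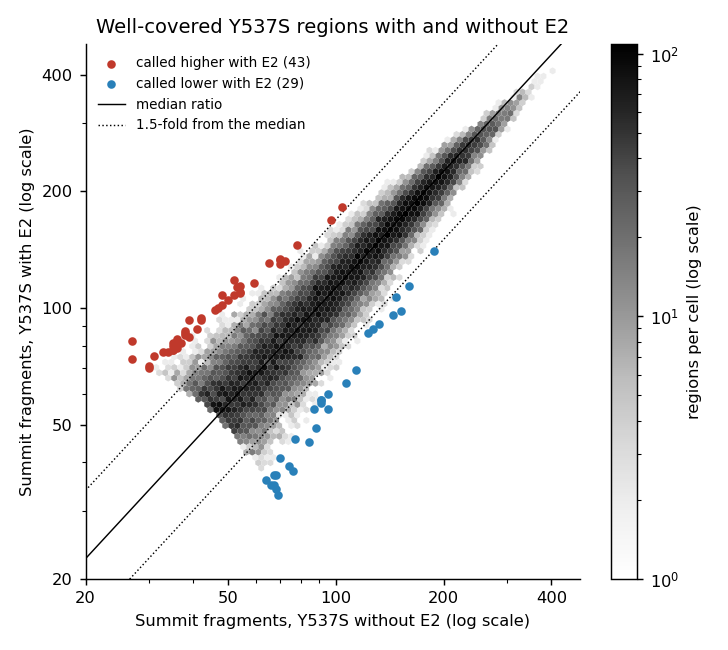
Fragments at the summit of each of the 36227 well-covered regions in the Y537S library with E2 (vertical, log scale) and without E2 (horizontal, log scale). The grey cells give the number of regions, the solid line the median ratio of 1.13 and the dotted lines 1.5-fold from it. The 43 regions called higher and the 29 called lower lie at the edge of 1 narrow band, mostly at low fragment numbers.

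The spread of the ratio was close to that of counting. The standard deviation of the centred log2 ratio was 0.23 in Y537S, and the counts of each region give 0.21 by binomial counting error, a quotient of 1.09. The quotient was 1.49 in wild type and 1.63 in K303R. In the same measure 573 of 36285 wild-type regions were called higher and 234 lower, and 740 of 28693 K303R regions were called higher and 218 lower. These counts are set side by side only, since read totals are not in the lists and the libraries differ in strength. The 95th percentile of summit fragments was 144 in K303R without E2, against 167 to 189 in the other 5 libraries. The test of the difference between receptors follows the description of the Y537S regions.

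**Figure D2:**
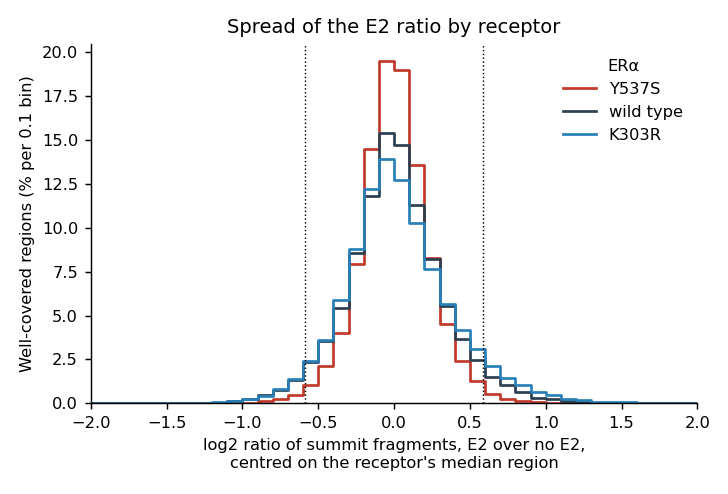
Share of well-covered regions (%, vertical) by log2 ratio of summit fragments with E2 over without E2 (horizontal, bins of 0.1), each receptor centred on its own median, with dotted lines at 1.5-fold. The Y537S curve is the narrowest, with a standard deviation of 0.23, against 0.32 in wild type and 0.36 in K303R.

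The median ratio was slightly lower at the strongest regions than at the weakest. Among 20 bins of equal size by mean fragments, the median ratio was 1.02 in the weakest bin and 0.972 in the strongest. At the 1011 regions with a mean of 250 fragments or more the median was 0.962, the range was 0.826 to 1.14, and 75.4% were under 1. No region of that set was called. Over all well-covered regions 0.119% were higher and 0.0801% lower, shares too small to tell 1011 regions from the rest. The undivided median ratio of these 1011 regions was 1.08, so they still had more fragments with E2 than without it. At the 7213 regions with a mean of 163 fragments or more the standard deviation was 0.843 times the counting error. Fragment numbers this high are near the top of all 6 lists, whose highest summits ran from 403 to 441 fragments, and the part of an upper limit on recorded fragments in this bend was not tested.

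**Figure D3:**
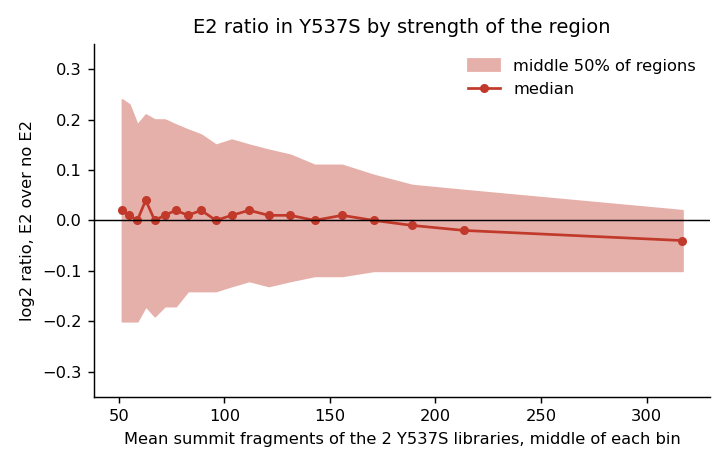
Median (points) and middle 50% of regions (band) of the centred log2 ratio of E2 over no E2 in Y537S, for 20 bins of equal size by mean summit fragments. The median stays between −0.04 and 0.04, is lowest in the strongest bin, and the band narrows with strength.

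The 5 regions with most fragments in each Y537S library were all on the long arm of chromosome 17. In ARMC7 (chr17:75114083-75114789) the summit had 409 fragments with E2, against 402 without E2, a ratio of 0.903 (0.785 to 1.04). In HID1, a Golgi protein of secretory granule formation, it had 408 with E2 and 403 without E2, a ratio of 0.898. In CDR2L both libraries had 399. The fifth with E2 was 81172 bp from RGS9, with 395 fragments against 364 without E2, and the fifth without E2 was in the monocarboxylate transporter family gene SLC16A5, with 390 with E2 and 382 without E2. The ratios of these regions ran from 0.887 to 0.963 and every interval included 1.

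By chromosome the median ratio ran from 0.986 on chromosome 14 to 1.01. By location it was 0.996 within 1 kb of a gene end, 1.0 in gene spans and 1.0 elsewhere. Called regions were near gene ends in 3 of 43 cases when higher and in 0 of 29 when lower, beside 10.9% of all well-covered regions. They were on 16 chromosomes when higher and on 15 when lower. Their mean fragments were modest, with a median of 67.5 for those higher and 74.0 for those lower, against 99.5 over all well-covered regions.

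Among the regions called higher, the clearest was in RGS6 (chr14:72198469-72198995), which encodes a regulator that speeds GTP hydrolysis by G protein alpha subunits. It had 82 fragments with E2, against 27 without E2, a ratio of 2.69 (1.73 to 4.33). Its wild-type counts were 37 with E2 and 36 without E2, and its K303R counts 23 with E2 and 25 without E2. RGS6 was thus high in the Y537S E2 library alone among the 6.

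A region in MARCHF1 (chr4:164327285-164327877), a membrane-bound ubiquitin ligase that lowers surface MHC class II, had 74 fragments with E2 and 27 without E2, a ratio of 2.43 (1.55 to 3.93). In wild type it had 16 with E2 and 37 without E2. In K303R it had a peak without E2 alone, with 21 fragments. The Y537S E2 count was the highest of the 5 libraries that list it.

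The region 4951 bp from KLK13 (chr19:51070308-51071127), a kallikrein protease gene, had 118 fragments with E2 and 52 without E2, a ratio of 2.01 (1.44 to 2.85). The other receptors had 89 with E2 and 94 without E2 in wild type, and 80 with E2 and 97 without E2 in K303R. Here the Y537S library without E2 was the lowest of the 6. A region in the sulfate transporter gene SLC13A4 had 93 with E2 and 39 without E2, a ratio of 2.12 (1.44 to 3.16). In wild type and K303R that region had 56 to 75 fragments.

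Further regions called higher lay in or near KCNH5, TMEM65 and DHRS4. KCNH5, a voltage-gated potassium channel gene, had 87 fragments with E2 and 38 without E2 (ratio 2.03). The region 73290 bp from TMEM65 had 108 with E2 and 48 without E2 (2.0), and the one 92463 bp from the retinol-metabolizing reductase gene DHRS4 had 93 with E2 and 42 without E2 (1.96). In wild type their ratios were 0.791, 0.765 and 1.18 in that order.

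Another 4 of the named regions called higher had wild-type ratios over 1, as did RGS6 (1.02), SLC13A4 (1.31) and DHRS4 (1.18). In OLFML1 the fragments were 113 with E2 and 53 without E2 in Y537S, and 62 with E2 and 39 without E2 in wild type. SSBP3, a partner of LIM-domain factors, had 94 with E2 and 42 without E2 in Y537S, and 65 with E2 and 41 without E2 in wild type. CCDC187 had 114 with E2 and 54 without E2 in Y537S, and 110 with E2 and 74 without E2 in wild type. The region 23717 bp from FOXL2NB had 131 with E2 and 65 without E2 in Y537S, and 60 with E2 and 43 without E2 in wild type. Wild-type ratios at these 4 regions were 1.38 to 1.58, below the Y537S ratios of 1.79 to 1.99. The Y537S counts chose the regions, so the higher Y537S ratios are in part set by the choice. Near FOXL2NB the wild-type interval included 1 (0.92 to 2.1).

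The region with the lowest ratio was in AFF3 (chr2:100019285-100019812), a transcription elongation gene of the AF4 family. It had 33 fragments with E2, against 69 without E2, a ratio of 0.424 (0.271 to 0.651). Wild type had 59 with E2 and 55 without E2 there, and K303R 50 with E2 and 41 without E2. The region 6174 bp from FGG, the fibrinogen gamma chain gene, had 38 with E2 and 76 without E2, a ratio of 0.444 (0.292 to 0.663), over a background of 10.1 with E2 and 9.75 without E2. In SLC41A3, a magnesium transporter gene, the fragments were 34 with E2 and 68 without E2 (0.444). In TRMU, a mitochondrial tRNA thiolation enzyme gene, they were 98 with E2 and 152 without E2 (0.572), while wild type had 102 with E2 and 67 without E2. TRMU had the highest count without E2 of the 12 regions named as lower.

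The other 8 regions named as lower had ratios of 0.464 to 0.592. The region 3709 bp from REEP3 had 45 fragments with E2 and 84 without E2, and that 24709 bp from SPRED1, an inhibitor of the RAS-MAPK pathway, had 69 with E2 and 114 without E2. The region 242803 bp from GK2 had 49 with E2 and 88 without E2, with a K303R ratio of 0.488. MAP3K7CL had 64 with E2 and 107 without E2, and MYO5B, a vesicle motor gene, 39 with E2 and 74 without E2. The region 519000 bp from EYS had 55 with E2 and 95 without E2, that 146947 bp from CRYBA4 had 96 with E2 and 144 without E2, and DIP2A had 35 with E2 and 67 without E2. The EYS region was also lower in wild type (0.704, 0.534 to 0.926) and in K303R (0.703, 0.526 to 0.938). MYO5B was also lower in wild type (0.615, 0.38 to 0.982). Apart from these and GK2 in K303R, the wild-type and K303R intervals of the 8 regions included 1 where a ratio was available.

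**Figure D4:**
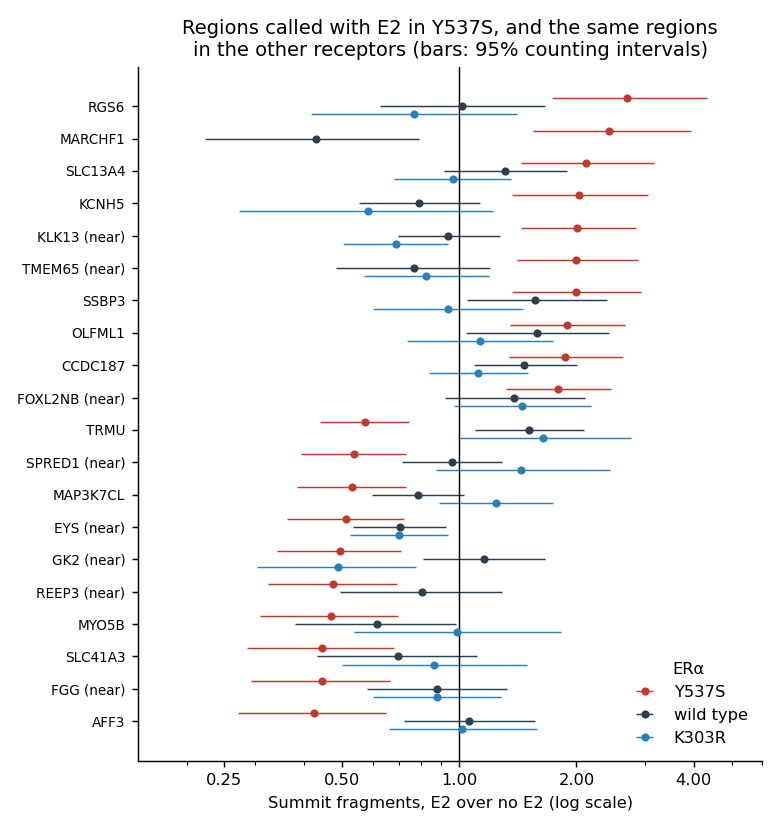
Ratio of summit fragments with E2 over without E2 (horizontal, log scale) at the first 10 regions called higher and the first 10 called lower in Y537S, by the interval bound nearest 1, with 95% counting intervals, in Y537S (red), wild type (dark) and K303R (blue). "Near" marks a region outside the gene. Every Y537S interval leaves out 1, by the rule that chose the regions, while most wild-type and K303R ratios lie closer to 1.

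The called regions were then read in the libraries that did not choose them. Of the 43 called higher, 31 were well covered in wild type, where their median ratio was 1.18 (0.672 to 2.38), 19 were over 1 and 7 passed 1.5-fold. In K303R 18 were well covered, with a median of 1.03, 9 over 1 and 0 past 1.5-fold. Of the 29 called lower, 21 were well covered in wild type, with a median of 0.961 and 0 past 1.5-fold downward, and 14 in K303R, with a median of 0.959 and 1 past it. Over all well-covered regions of each receptor, 92.4% of wild-type ratios and 89.6% of K303R ratios were within 1.5-fold of the median, counting both directions. In Y537S itself the regions called higher had a median ratio of 1.95 and those called lower one of 0.531.

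Regions called higher with E2 in the other receptors had Y537S ratios close to 1. For this the regions were merged over all 6 lists, which changes their number slightly from the counts above. Of 570 regions called higher with E2 in wild type, 566 were in both Y537S lists and 519 were well covered there. These 519 had a median of 117 fragments with E2 and 101 without E2 in Y537S, and 112 with E2 and 60 without E2 in wild type. Their median ratio was 1.01 in Y537S (quartiles 0.929 and 1.11), and 54.1% were over 1. Of the 519, 3 were called higher and 1 lower, beside 0.119% and 0.0801% of all well-covered Y537S regions. Of 738 regions called higher in K303R, 711 were well covered in Y537S, with a median of 125 fragments with E2 and 109 without E2. Their median Y537S ratio was also 1.01, with 54.9% over 1 and 0 called, at overall shares too small to tell 711 regions from the rest. The same K303R regions had medians of 113 with E2 and 47 without E2 in K303R.

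Regions called lower with E2 in the other receptors also had Y537S ratios close to 1. The 149 of 233 from wild type that were well covered in Y537S had a median Y537S ratio of 0.969, with 0 called, beside 0.533 in wild type. The 136 of 214 from K303R had one of 0.981, with 0 called, beside 0.526 in K303R. Over all well-covered Y537S regions 0.119% were called higher and 0.0801% lower, shares too small for 0 called to set these regions apart. Both sets were chosen by wild-type and K303R libraries alone.

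The difference between receptors was tested directly as the Y537S ratio over the other receptor's ratio, with a counting interval from the 4 libraries, at regions in all 4 lists with a mean of at least 50 fragments. The rule for a call was again 1.5-fold with an interval, at the same confidence error, that left out 1. Against wild type, the ratio was lower in Y537S at 272 of 35598 regions (0.764%) and higher at 102 (0.287%). Against K303R, it was lower in Y537S at 369 of 31827 regions (1.16%) and higher at 124 (0.39%). The minimum applies to all 4 libraries together, so a region with high Y537S counts could enter with few fragments in the other receptor. With a mean of at least 50 fragments required in each receptor, an alternative chosen after seeing the data, 225 of 30251 regions were lower and 87 higher against wild type, and 269 of 25190 lower and 87 higher against K303R. The split depended on the scaling. When each library was scaled by its lowest local background instead, 465 regions were lower and 43 higher against wild type, and 2492 were lower and 13 higher against K303R. Peak names carry one tag in the Y537S lists and another in the wild-type and K303R lists, so receptor, line and tag cannot be told apart in these differences, while both Y537S lists share a tag. Both comparisons use the same Y537S libraries.

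Where the Y537S ratio was lower than in wild type, Y537S had a median of 106 fragments with E2 and 104 without E2, and wild type 102 with E2 and 52 without E2. Where it was lower than in K303R, Y537S had 111 with E2 and 110 without E2, and K303R 94 with E2 and 36 without E2. In both sets the library with the lowest median was the other receptor's library without E2, and with the minimum in each receptor its median was 60 in wild type and 46 in K303R. The same counts chose both sets, so a low count in that library is in part set by the choice. The Y537S ratio itself passed 1.5-fold in 20 of the 272 and in 15 of the 369.

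In NOL12 (chr22:37688513-37689311), a nucleolar RNA-binding protein gene, Y537S had 176 fragments with E2 and 178 without E2, while wild type had 60 with E2 and 10 without E2. The Y537S ratio was 0.149 times the wild-type ratio (0.0738 to 0.3). K303R had 91 with E2 and 21 without E2 at the same place, and the Y537S ratio was 0.246 times that of K303R (0.147 to 0.413). Both Y537S libraries were above the 4 others there, and the wild-type mean of 35 fragments was under 50, so the comparison with wild type does not meet the minimum in each receptor.

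The region 92090 bp from VRK1, a chromatin kinase gene, had 99 fragments with E2 and 93 without E2 in Y537S, and 122 with E2 and 31 without E2 in wild type. In RYR1, the calcium release channel gene of skeletal muscle, Y537S had 77 with E2 and 73 without E2, and wild type 84 with E2 and 21 without E2. The region 33840 bp from LOC124905027 had 91 with E2 and 88 without E2 in Y537S, and 102 with E2 and 26 without E2 in wild type. These same counts chose the 3 regions, so the pattern among them is in part set by the choice and is a description only. At these 3 regions the Y537S count without E2 was closer to wild type with E2 than to wild type without E2. LY9, a lymphocyte surface receptor gene, differed from them, since its Y537S counts were 58 with E2 and 91 without E2, and its wild-type counts 95 with E2 and 44 without E2.

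Against K303R, FAM83E had 74 fragments with E2 and 80 without E2 in Y537S, and 85 with E2 and 16 without E2 in K303R. The region 120540 bp from MYEOV had 98 with E2 and 83 without E2 in Y537S, and 105 with E2 and 18 without E2 in K303R. TBCD, a tubulin-folding cofactor gene, had 218 with E2 and 197 without E2 in Y537S, and 139 with E2 and 34 without E2 in K303R. GFRA1, the co-receptor for GDNF, had 98 in both Y537S libraries, and 63 with E2 and 11 without E2 in K303R, a K303R mean of 37 that is also under 50. The ratios of ratios at these 4 were 0.188 to 0.292.

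Regions with a higher ratio in Y537S are described by which of both ratios passed 1.5-fold. Of the 102 against wild type, the Y537S ratio passed 1.5-fold upward in 34 and the wild-type ratio passed it downward in 71, and of the 124 against K303R these were 31 in Y537S and 99 in K303R. The 102 against wild type had medians of 91 with E2 and 60 without E2 in Y537S, and 59 with E2 and 95 without E2 in wild type. The first by the bound nearest 1 was in PHOSPHO1, a phosphatase gene of bone mineralization, with 137 with E2 and 82 without E2 in Y537S, and 59 with E2 and 107 without E2 in wild type, a ratio of ratios of 2.74 (1.8 to 4.16). In BICD1, a dynein adaptor gene, it was 3.69, from 86 with E2 and 45 without E2 in Y537S and 22 with E2 and 47 without E2 in wild type, whose mean of 34.5 was under 50. In MYO18A it was 2.98, and in the RNA helicase gene DHX35 3.12. The others of the first 10, in or near ZNF326, PLA2G4A, TENM4, FYB2, LINGO2 and SYNE3, were 2.55 to 3.07.

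Against K303R the first was TP53I13, with 82 fragments with E2 and 48 without E2 in Y537S, and 41 with E2 and 84 without E2 in K303R, a ratio of ratios of 3.78 (2.25 to 6.33). The region 55956 bp from the kinase gene DYRK2 had 73 with E2 and 25 without E2 in Y537S, and 64 with E2 and 81 without E2 in K303R. In GRHL2, a transcription factor gene of epithelial cells, Y537S had 82 with E2 and 50 without E2, and K303R 64 with E2 and 116 without E2, a ratio of ratios of 3.21. The others of the first 10, in or near DSCAM, AP3B1, RASA1, KLK13, DIAPH3, MOCS2 and DLGAP4, were 2.57 to 4.2. The K303R mean was under 50 fragments at AP3B1, RASA1 and MOCS2, and the Y537S mean at DYRK2 and DSCAM.

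Estrogen receptor targets, genes that E2 is known to induce in breast cancer cells, were well bound by Y537S with and without E2. Of 45 listed genes, 41 had a well-covered region within 25 kb, with 213 regions in all. Their median ratio was 0.993 (quartiles 0.924 and 1.08), beside 1.0 over all well-covered regions. None was called higher or lower, beside 0.119% and 0.0801% of all regions, and 1.88% were beyond 1.5-fold, beside 2.12%. With ratios centred within the 20 bins of strength, the median of the list was 1.0. The 4 genes with no well-covered region were EGR3, OLFM1, RBBP8 and UGCG.

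**Figure D5:**
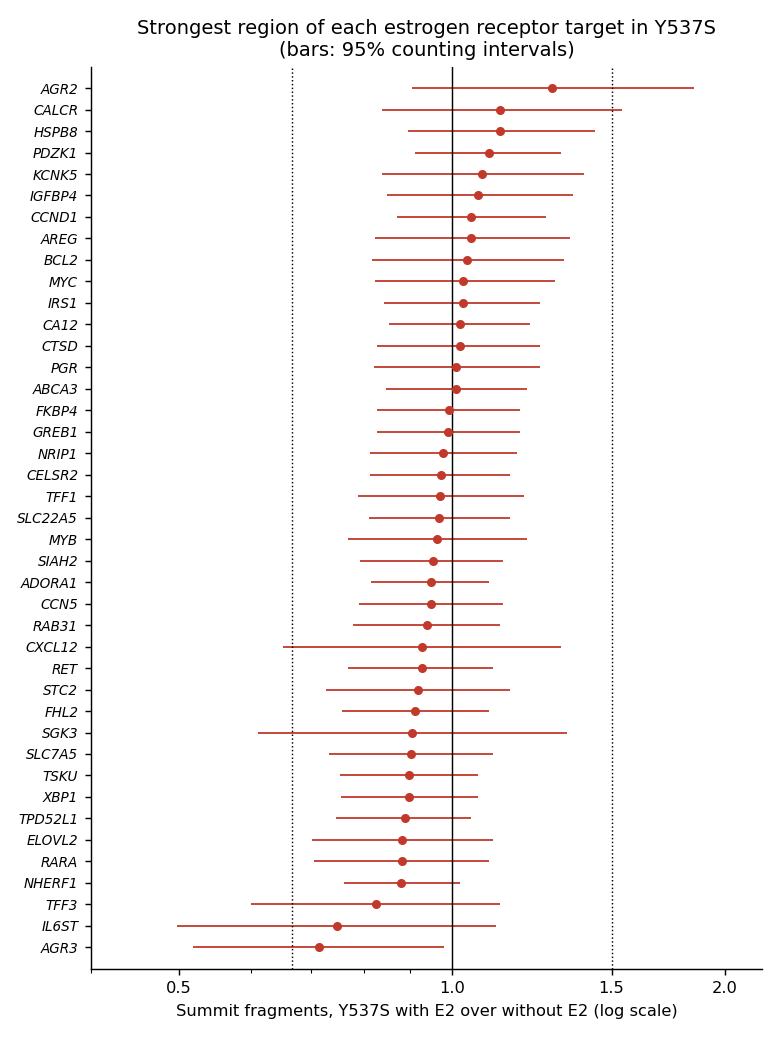
Ratio of summit fragments with E2 over without E2 in Y537S (horizontal, log scale) at the strongest region within 25 kb of each of 41 estrogen receptor target genes, with 95% counting intervals and dotted lines at 1.5-fold. All ratios are between 0.714 and 1.29, and the AGR3 interval alone leaves out 1.

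The strongest region of each target gene shows the level behind these ratios. GREB1, a cofactor and one of the most E2-responsive genes, had 258 fragments with E2, against 231 without E2, in a region of its span (chr2:11498439-11499031), a ratio of 0.991 (0.827 to 1.19). PGR, the progesterone receptor gene, had 192 with E2 and 168 without E2 (1.01, 0.82 to 1.25). The region 208 bp from TFF2 that is the strongest within 25 kb of TFF1, a secreted trefoil peptide gene, had 197 with E2 and 180 without E2 (0.971, 0.789 to 1.2). TFF3, its neighbour, had 80 with E2 and 86 without E2. All of these regions were present without E2 at a similar level. Wild-type ratios at the GREB1, PGR and TFF1 regions were 0.934, 1.0 and 0.918, and K303R ratios 0.966, 0.902 and 1.15. A ratio near 1 there was thus not particular to Y537S. At TFF3 the ratio was 1.47 in wild type (1.12 to 1.94) and 1.75 in K303R (1.28 to 2.41).

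Transcription factors and cell growth genes of the list came out alike. The region 13335 bp from XBP1, a factor of the unfolded protein response and luminal cells, had 267 fragments with E2 and 264 without E2 (0.897, 0.754 to 1.07). CCND1, the cyclin of G1 entry, had 244 with E2 and 206 without E2 (1.05), over backgrounds of 35.6 with E2 and 31.9 without E2. The region 9408 bp from MYC had 171 with E2 and 147 without E2 (1.03), and MYB had 167 with E2 and 154 without E2 (0.962). RARA, the retinoic acid receptor alpha gene, had 160 with E2 and 161 without E2 (0.882). BCL2, which blocks apoptosis, had 148 with E2 and 126 without E2 (1.04).

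Among targets that act at the membrane or in signalling, NHERF1, a scaffold of membrane proteins, had the most fragments of the list, 369 with E2 and 372 without E2 (0.88, 0.76 to 1.02). ADORA1, an adenosine receptor gene, had 358 with E2 and 335 without E2 (0.948). The carbonic anhydrase gene CA12 had 271 with E2 and 236 without E2 (1.02), the lipid transporter gene ABCA3 270 with E2 and 237 without E2 (1.01), and the carnitine transporter gene SLC22A5 263 with E2 and 241 without E2 (0.968). The receptor kinase gene RET had 240 with E2 and 230 without E2 (0.926). NRIP1, a corepressor gene, had 248 with E2 and 225 without E2 (0.978), and FKBP4, a chaperone partner of steroid receptors, 255 with E2 and 228 without E2 (0.992). The region 949 bp from PDZK1 had 257 with E2 and 208 without E2 (1.1).

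Over all 213 target regions the ratio ran from 0.642 to 1.62. Among the strongest regions of each gene, the widest ratios belonged to those with few fragments. The region 2771 bp from TSPAN13 is the strongest within 25 kb of AGR2, a disulfide isomerase gene. It had 80 with E2 and 55 without E2 (1.29, 0.904 to 1.85). AGR3 had 74 with E2 and 92 without E2 (0.714, 0.518 to 0.98), and the region 18591 bp from the cytokine receptor gene IL6ST 48 with E2 and 57 without E2 (0.747, 0.498 to 1.12). None of the 3 passed the rule for a call.

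The remaining lists were read the same way. Among receptor coregulators, 14 of 24 genes had a well-covered region, 64 in all, with a median ratio of 0.99 and 0 called. SMARCA4, a chromatin remodelling ATPase, had 255 fragments with E2 and 220 without E2 (1.03) and KMT2D, a histone methyltransferase, 224 with E2 and 179 without E2 (1.11). Luminal lineage transcription factors had 74 well-covered regions near 15 of 18 genes, with a median of 1.0 and 0 called. ELF3 had 346 with E2 and 314 without E2 (0.978) and GRHL2 280 with E2 and 276 without E2 (0.9). The region in TTC6 that is the strongest near FOXA1, the main pioneer factor of ERα, had 168 with E2 and 151 without E2 (0.987), and GATA3 had 116 with E2 and 93 without E2 (1.11). The widest ratio of the list's strongest regions was at SPDEF, with 84 with E2 and 52 without E2 (1.43, 1.0 to 2.07).

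Androgen receptor targets and apocrine genes, which fit the type of the line, had 75 well-covered regions near 20 of 26 genes. Their median ratio was 1.0, with 0 called, beside 0.119% higher and 0.0801% lower over all well-covered regions. SLC45A3 had 319 fragments with E2 and 323 without E2 (0.876), SEC14L2 292 with E2 and 248 without E2 (1.04) and PMEPA1, an inhibitor of TGF-beta signalling, 256 with E2 and 233 without E2 (0.975). TMPRSS2, a serine protease, had 182 with E2 and 142 without E2 (1.14), and FKBP5, a cochaperone of steroid receptors, 121 with E2 and 90 without E2 (1.19). ZBTB16, a zinc finger repressor, had the highest ratio among the strongest regions, 1.26 (1.01 to 1.58), with 201 with E2 and 141 without E2.

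Growth factor receptor and PI3K genes had 81 well-covered regions near 15 of 18 genes, with a median of 0.992. Of these 81, 1 was called higher and 0 lower, beside 0.119% and 0.0801% of all well-covered regions. The strongest region of ERBB2 lay in its neighbour PGAP3, with 336 fragments with E2 and 316 without E2 (0.943). EGFR had 135 with E2 and 125 without E2 (0.958) and FGFR2 209 with E2 and 175 without E2 (1.06). The called region, in PGPEP1L within 25 kb of IGF1R, had 78 with E2 and 35 without E2 (1.98, 1.31 to 3.04), with 47 with E2 and 55 without E2 in wild type, and 25 with E2 and 7 without E2 in K303R. IGF1R's strongest region had 171 with E2 and 164 without E2 (0.925).

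Steroid chaperone and heat shock genes had 30 well-covered regions near 12 of 16 genes, with a median of 0.974. Beside 0.119% of all well-covered regions, 1 of these 30 was called higher. That region lay in PDE4A, a cAMP phosphodiesterase gene, within 25 kb of the kinase cochaperone gene CDC37. It had 132 fragments with E2 and 72 without E2 (1.63, 1.21 to 2.2), with 49 with E2 and 47 without E2 in wild type and 69 with E2 and 78 without E2 in K303R. BAG1 had 297 with E2 and 269 without E2 (0.98), AHSA1, an activator of HSP90, 264 with E2 and 253 without E2 (0.926), and HSP90AA1 itself 200 with E2 and 183 without E2 (0.97).

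Immediate early genes had 28 well-covered regions near 11 of 15 genes, with a median of 0.973 and 0 called. The region 23638 bp from FOS had 250 fragments with E2 and 226 without E2 (0.982), and that 21067 bp from JUN 214 with E2 and 197 without E2 (0.964). Estrogen metabolism genes had 39 regions near 12 of 15 genes, with a median of 1.03 and 0 called. The strongest near CYP19A1, the aromatase that makes E2, lay in GLDN and had 255 with E2 and 222 without E2 (1.02), and HSD17B2, which oxidizes E2 to estrone, had 204 with E2 and 185 without E2 (0.978). Cell cycle genes had the highest median of the lists, 1.06, over 39 regions near 13 of 23 genes, also with 0 called. MCM5, a replicative helicase subunit, had 312 with E2 and 271 without E2 (1.02), and RRM2, a ribonucleotide reductase subunit, 211 with E2 and 192 without E2 (0.975).

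Markers of cell type cannot check the line here, because binding near a gene does not measure its expression. Well-covered regions were near 13 of 16 luminal epithelial genes, 8 of 16 basal and mesenchymal genes and 9 of 16 hepatocyte genes. Their median ratios were 0.973, 1.01 and 0.996. Of 19 hepatocyte regions 1, the one near FGG above, was called lower, beside 0.0801% of all well-covered regions. KRT19, a luminal keratin, had 134 fragments with E2 and 149 without E2 (0.798, 0.627 to 1.01), TP63, the basal factor, 274 with E2 and 246 without E2 (0.988), and the region 288 bp from SERPINA1, the antitrypsin gene, 234 with E2 and 254 without E2 (0.817, 0.681 to 0.98). Housekeeping genes had 23 regions near 12 of 18 genes, with a median of 0.972. None of the 23 was called, beside 0.119% higher and 0.0801% lower over all well-covered regions. The medians of all the lists thus lay between 0.972 and 1.06, beside 1.0 over all well-covered regions.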

How the data were processed

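ERα ChIP-seq in 6 libraries, 1 per group, gave 1 narrowPeak list each. MACS2, Bowtie2, Picard, SAMtools and bedtools, with hg38, stand in the submitters' processing notes, with no versions; the control and the threshold are not given there. The authors' deposited lists give, per peak, a fold over local background (a ratio), −log10 p-value, −log10 q-value, summit and a score, which was not used. Read totals are not in these lists.

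With a pseudocount of 1 and a Poisson p, fold and −log10 p gave a whole number of summit fragments and the local background, with the deposited −log10 p matched within 0.01% for 100.0% of peaks. Recovery and calls were tested on simulated data. Chromosome X was an alternative. Fragments of a merged region are those of its highest summit; amplified fragments may not be independent molecules. Calls and intervals are given with the results: exact (Clopper-Pearson) for 2 libraries, normal on the log scale for 4. Genes are RefSeq spans (GRCh38.p14); all 266 genes of 13 lists matched by symbol. A region is named by the gene whose span holds its summit, else by the nearest protein-coding gene. Named regions are the extremes of each call by the interval bound nearest 1, the 5 strongest per library or class, and the strongest per listed gene. Promoter windows on chromosome 8 were not used here, and a few items under the naming rule are not reported here. Members and lists were chosen with earlier results of these data known. Alternatives changed scaling, the minimum, the fold, the interval, peaks per region, windows and overlap. Python 3.11.15, SciPy 1.17.1 and pandas 2.3.3 were used.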

Additional observations from a re-analysis of the deposited data

Results flagged for a closer look

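The number of bound regions with E2 fell by 4484 in Y537S, to 109230 with E2, against 113714 without E2. In K303R it was 985 higher, with 103833 with E2 and 102848 without E2. The opposite directions drew attention to this value. The difference was not tested, since each receptor has 1 library a side.

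The E2 ratio was lower in Y537S than in wild type at 272 regions and higher at 102, and lower in Y537S than in K303R at 369 regions and higher at 124. Each was singled out by the counting interval of the difference between both ratios, which has no replicate check.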

How the results depend on the processing

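Against a main count of 43 regions called higher with E2 in Y537S and 29 lower, a minimum mean of 25 fragments gave 86 and 67, a minimum of 100 gave 7 and 8, a 2-fold rule 14 and 11, and a 99% interval 188 and 166. Regions whose E2 ratio differed from wild type, 374 in the main count, numbered 570 at the minimum of 25, 136 at 100 and 1413 with the 99% interval. Those that differed from K303R, 493 in the main count, numbered 171 at the minimum of 100, 1683 with the 99% interval and 2505 when scaled by the lowest local background, which follows from the 0.35 (log2) shift of the K303R median under that scaling. That scaling left 42 higher and 32 lower in Y537S and split the differences into 465 lower and 43 higher against wild type, and 2492 lower and 13 higher against K303R. Spread over counting error was 1.15 at the minimum of 25 and 0.98 at 100, against 1.09. The share of E2 regions found without E2 was 97.1% at a −log10 q of at least 10 and 83.1% when 50% of each region had to overlap, against 86.8%. No strong E2 region of 10000 was absent without E2; 30 of 50000 were, and 37 of 10000 under the stricter overlap. The median log2 ratio of estrogen receptor targets ran from −0.03 to 0.0 over its alternatives. Centring within 20 bins of strength, chosen after seeing the data, gave 39 higher and 35 lower, and a minimum of 50 in each receptor, also chosen then, 312 differences from wild type and 356 from K303R. Of 81 alternative values, 46 stayed within 1.5 times the main count or within the error of the main value, 35 moved further and 0 reversed, which does not say that the same regions were called; other causes were not tested. Leaving out a library was not possible with 1 per group. No paired analysis was possible because each group has 1 library.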
